A study of Mus musculus with 12 samples.

Results

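The comparison set wild-type geniculate ganglia of 2 mouse backgrounds against each other. It used 6 of the 12 arrays of the study. There were 3 arrays labelled NT4 wild type, on the 129 background, and 3 labelled BDNF wild type, on the C57BL/6J background, all from embryos at embryonic day 14.5. The arrays were chosen by their titles, and all 45037 probe sets other than the array's own controls were compared. The other 6 arrays came from the knockouts of the same lines, BDNF knockout on C57BL/6J and NT4 knockout on 129, with 3 arrays each, and served as a repeat of the strain contrast. All mice of the BDNF line were C57BL/6J and all mice of the NT4 line were 129, so strain, line and colony cannot be told apart. The labels call the arrays biological replicates, do not name a 129 substrain, and do not say how many embryos went into an RNA sample, so p-values measure the spread between these arrays.

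The geniculate ganglion is a cranial sensory ganglion whose neurons innervate taste buds and the skin of the outer ear. Its gustatory neurons depend during development on the neurotrophins BDNF and NT4, which both act through the receptor TrkB. Inbred strains such as 129 and C57BL/6J differ at many positions of the genome, in sequence and in the level and structure of transcripts. On the expression array used here a gene is often read by several probe sets, each a group of short oligonucleotides designed to a stretch of transcript. A probe set reports hybridisation to that stretch, so a difference seen by every probe set of a gene and one seen by a single probe set are different observations and are given separately below. The probes' own sequences were not used here, so whether probe sets of a gene read overlapping stretches was not examined. Probe sets that agree may therefore not be separate readings of a gene.

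Array medians were 169 to 182 on the 6 wild-type arrays. Log2 intensities correlated at r = 0.967 to 0.985 between arrays of a wild-type group and at 0.932 to 0.945 between the groups. The 129 arrays had a lower upper range, with a 75th percentile of 694, 700.3 and 719 against 753, 759.7 and 761 on the C57BL/6J arrays. The ganglion markers P2rx3 and Isl1 were bright in both groups, while Tlx3 and Phox2a, described below, differed between them. P2rx3, an ATP-gated channel of sensory neurons, read 8183 in C57BL/6J and 8170 in 129, and Isl1, a transcription factor of sensory neurons, read 7578 and 7557. Wild-type replicate 2 of each group stood apart from the other arrays in sex-linked genes, with log2 Xist 8.09 and 7.92 above the mean of the Y-linked genes against 2.79 to 5.09 elsewhere. Each group holds 1 such array. The main counts are also given without both arrays.

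The 2 wild types differed at 6275 of the 45037 probe sets, 13.9% of those tested (limma, Benjamini-Hochberg adjusted p under 0.05, the threshold behind every use of the word called). Of these, 2918 (6.48%) were higher in 129 and 3357 (7.45%) were lower. Groups of 3 arrays did not overlap at 33.6% of all probe sets, and at 6267 of the 6275 called ones. The median size of a called difference was 1.35 on the log2 scale, beside a median standard error (SE) of 0.20 over all probe sets. Differences of at least 1 were called at 4127 probe sets, of which 2179 were higher and 1948 lower in 129, and differences of at least 4 at 55 and 68. Without both replicate 2 arrays, 4293 probe sets were called, 2192 higher and 2101 lower.

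The knockout arrays gave the same contrast on arrays that entered neither wild-type mean, although the estimate of the spread was shared. There, 7019 probe sets (15.6%) were called between the NT4 knockout and the BDNF knockout, 3742 higher and 3277 lower in 129. Centring each array on its median changed this split to 3001 higher and 4987 lower. Of the wild-type calls, 4825 were called in the same direction on the knockout arrays, which is 76.9% of the wild-type and 68.7% of the knockout calls. Another 8 were called in the opposite direction. The sign was the same for 6125 of the wild-type calls (97.6%). Across the 45037 probe sets, which are not independent replicates, the 2 differences correlated at r = 0.833. For called differences of at least 1, the median ratio of the knockout-array to the wild-type difference was 0.981, and 3618 of them (87.7%) were called again. The knockout contrast also holds the loss of a different gene on each side. A term for the change of the strain difference with genotype was called at 5 probe sets (0.0111%), and 2632 had an unadjusted p under 0.05. With any 1 array left out it was called at 1 to 4.

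**Figure D1:**
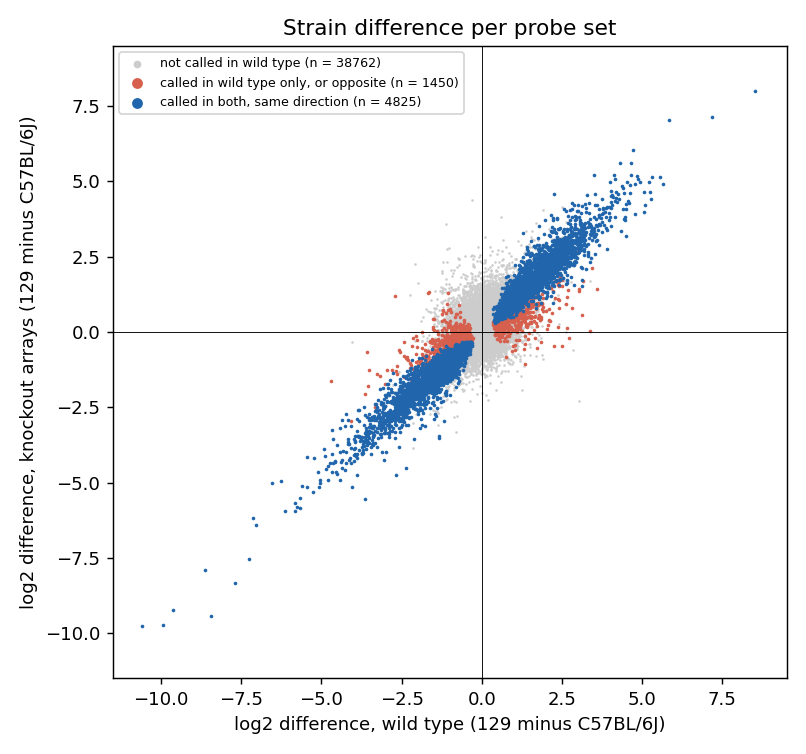
Each point is a probe set, with the log2 difference 129 minus C57BL/6J on the wild-type arrays on the x axis and on the knockout arrays on the y axis. The 4825 probe sets called in both in the same direction lie along the diagonal, in blue. Wild-type calls not repeated in that way are in red.

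Probe sets with exactly 1 gene symbol covered 18193 genes, of which 9010 had several probe sets. At least 1 probe set was called for 4150 genes, 2707 of them with several. Only 268 of the 2707 had a second probe set called in the same direction and none that opposed it at an unadjusted p under 0.05. They are named agreeing genes here, and 89 were higher and 179 lower in 129, a split that went with level as described below. Leaving out replicate 1 or 2 of the 129 wild type gave 152 and 146 such genes, and leaving out replicate 3 of the C57BL/6J wild type gave 177. There were 111 without both replicate 2 arrays. A further 347 genes, 114 higher and 233 lower, had a second probe set with the same sign that reached an unadjusted p under 0.05 and was not called. In 1664 genes (61.5% of the 2707) no other probe set reached an unadjusted p of 0.05, with the called one higher in 743 and lower in 921. In 428 genes some probe set went against a called one at that p, and in 171 of these both directions were called. Without both replicate 2 arrays 240 genes were opposed. The remaining 1443 genes were read by 1 probe set, 689 higher and 754 lower.

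Repetition on the knockout arrays ranged from 70.9% in partly agreeing genes to 83.2% in opposed genes. The leading probe set was called again in the same direction for 80.6% of agreeing genes, 75.4% of genes with a single called probe set and 81.0% of genes read by 1 probe set. Differences between those shares were not tested. Of 464 genes with 2 or more called probe sets, 293 had them all in 1 direction and 171 in both. Among pairs of called probe sets of a gene, 76.8% of 259 pairs went the same way where both probe sets were above the median level, 57.6% of 203 where 1 was and 60.4% of 159 where neither was.

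The strictest form of agreement, added after the data had been seen, was a gene with every probe set called in 1 direction. It held for 70 genes with 148 probe sets, 25 higher and 45 lower in 129, while 49 other genes had every probe set called but in both directions. Leaving out replicate 1, 2 or 3 of the 129 wild type gave 36, 34 and 42 such genes, leaving out replicate 3 of the C57BL/6J wild type 41, and leaving out both replicate 2 arrays 28. In 34 of the 70 every probe set was also called in the same direction on the knockout arrays, and 140 of the 148 probe sets had the same sign there. The genes described next are the 6 of each direction whose smallest difference was greatest and those of the 70 with more than 2 probe sets.

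Gda encodes guanine deaminase, which turns guanine into xanthine and is abundant in brain. Its probe set 1422868_s_at read 658, 445 and 538 on the C57BL/6J arrays and 10.7, 11.9 and 14.9 on the 129 arrays. Probe set 1435748_at read 491, 599.6 and 508 against 29.4, 26.0 and 22.2, and 1435749_at read 785, 448 and 915 against 42.4, 17.9 and 26.7. Every C57BL/6J array lay far above every 129 array on all 3. The log2 differences were −5.45 (SE 0.25, adjusted p = 3.49e-07), −4.37 (SE 0.21, adjusted p = 4.38e-07) and −4.65 (SE 0.67, adjusted p = 0.000667), by limma. On the knockout arrays they were −4.15, −2.91 and −3.57, all called. On 1422868_s_at the 129 arrays lay below the 5th percentile of their own intensities, which was 14.4 to 15.9 over the wild-type arrays and is taken here as the bottom of the scale. Set against that percentile, the intensity was at least 35.0-fold lower in 129.

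The stretch upstream of the Gda start site is shown because Gda is the gene whose probe sets agreed on the greatest difference, and that of Neurog1, described below, because it encodes a factor of the sensory lineage whose probe sets went the other way. Both are RefSeq sequence of assembly GRCm38.p6, which is C57BL/6J, and cover the 250 bases before the start. The same windows of a 129 genome were not used here. Capitals mark matches to CCAAT and to CANNTG, searched on both strands, and no matches overlapped. TATAAA, also searched on both strands, was in neither window. Of 32851 mouse promoter windows of the same length, 33.8% held CCAAT, 66.2% CANNTG and 12.4% TATAAA. Gda lies on chromosome 19, minus strand, and this window is chr19:21472662-21472911. Neurog1 lies on chromosome 13, minus strand, and its window is chr13:56252181-56252430.
Gda: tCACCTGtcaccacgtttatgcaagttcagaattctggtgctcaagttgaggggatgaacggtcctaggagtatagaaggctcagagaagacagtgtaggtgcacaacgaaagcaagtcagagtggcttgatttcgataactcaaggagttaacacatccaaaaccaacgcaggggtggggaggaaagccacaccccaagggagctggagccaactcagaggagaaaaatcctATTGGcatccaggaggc
Neurog1: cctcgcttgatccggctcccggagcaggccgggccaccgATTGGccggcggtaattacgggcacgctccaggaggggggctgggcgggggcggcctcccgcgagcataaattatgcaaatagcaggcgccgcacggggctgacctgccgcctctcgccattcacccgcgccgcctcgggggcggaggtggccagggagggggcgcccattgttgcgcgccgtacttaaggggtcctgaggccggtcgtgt
The CCAAT match lies on the opposite strand in both windows, read there as ATTGG. It starts at base 234 of the Gda window and at base 40 of the Neurog1 window. The Gda window held 5 CG pairs and the Neurog1 window 29, against a median of 6 over all windows.

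Tsr3, which encodes an enzyme that modifies a base of ribosomal RNA, was lower in 129 on both of its probe sets. 1431132_x_at read 4768, 4599 and 4700.2 in C57BL/6J and 71.3, 80.4 and 96.4 in 129, and 1437969_s_at read 2686, 2903 and 2923 against 295, 238 and 281. The groups were far apart on both, with differences of −5.84 (SE 0.15, adjusted p = 6.53e-09) and −3.39 (SE 0.15, adjusted p = 3.01e-07), and −5.96 and −3.34 on the knockout arrays. Krt12, a keratin known from the corneal epithelium, was lower by 2.70 and 2.72 in size, from 199.7, 154 and 143 to 27.4, 24.01 and 24.6 on its brighter probe set 1419230_at. On 1419231_s_at (−2.72) the 129 arrays were below the 5th percentile, so that size is not exact. Clca1, a secreted regulator of chloride channels, was dim throughout. Its brighter probe set 1459889_at read 55.2, 59.0 and 51.5 against 18.1, 12.9 and 7.0, a difference of −2.23 (SE 0.29, adjusted p = 0.000316). The other genes among the 6 lowest were the unnamed transcripts 2900060N12Rik, with −1.67 and −3.34, and 6430710C18Rik, with −1.60 and −2.03.

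Slc6a2, the noradrenaline transporter, was lower in 129 on all 4 probe sets. The brightest, 1442449_at, read 5718, 5822 and 5971 in C57BL/6J and 2144, 2190.4 and 2182 in 129. The arrays of a strain lay close together on this probe set, and the groups did not overlap on any of the 4. Differences were −1.43 (SE 0.11, adjusted p = 6.67e-06), −1.43, −1.17 and −1.32, the last with an adjusted p of 0.0315. On the knockout arrays the same probe sets differed by −2.80, −1.54, −2.95 and −3.44, and the first of these was one of the 5 probe sets at which the strain difference changed with genotype. Kbtbd11, a protein with kelch repeats, was lower on 4 of 4 probe sets by −2.05, −1.04, −0.83 and −2.50. On 1446549_at, the last of these, the 129 arrays were below the 5th percentile, so its size is not exact. The second, 1431254_at, was not called on the knockout arrays (−0.60). Elp3, the catalytic subunit of the Elongator complex, which modifies transfer RNAs, showed a small difference of one size on 3 of 3 probe sets. 1437338_x_at read 3798, 3739.7 and 3744 against 2827, 2765 and 2911, and the 3 differences were −0.37, −0.41 and −0.41, with −0.45, −0.46 and −0.42 on the knockout arrays. The adjusted p of its probe sets ran from 0.0104 to 0.0273. The leading one was not called under 2 of the 20 alternatives, quantile normalization and leaving out both replicate 2 arrays.

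Higher in 129 on every probe set was Crtc2, a coactivator of the transcription factor CREB. 1429373_x_at read 93.2, 90.9 and 98.8 in C57BL/6J and 518, 487 and 514 in 129, and 1424660_s_at read 56.5, 75.2 and 65.4 against 319, 287 and 305. The groups were several-fold apart on both, by 2.43 (SE 0.15, adjusted p = 1.97e-06) and 2.22 (SE 0.18, adjusted p = 1.07e-05). Zbtb37, a zinc finger protein, was higher by 1.96 and 1.86. Neurog1, a proneural transcription factor of sensory neuron precursors in some cranial ganglia, read 43.5, 53.3 and 42.1 against 189, 162 and 183 on 1450836_at. On 1438551_at it read 33.7, 33.6 and 44.4 against 123, 139 and 126. The 129 arrays were all above the C57BL/6J arrays on both, with differences of 1.95 (SE 0.13, adjusted p = 3.72e-06) and 1.81 (SE 0.42, adjusted p = 0.0146). On the knockout arrays they were 1.87 and 1.45, where 1 BDNF knockout array read 118 on 1438551_at, within the range of the 129 arrays.

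Spata9 was higher in 129 by 2.10 and 1.68, and its brighter probe set 1453213_at read 138, 55.8 and 163 against 569, 351 and 499. Grpr, the receptor of gastrin-releasing peptide, was higher by 2.58 and 1.47 at low intensity, with 22.6, 17.3 and 18.1 against 56.98, 50.5 and 52.5 on 1450260_at. On the other, 1421470_at, the C57BL/6J arrays were below the 5th percentile, so the size of 2.58 is not exact. Slc13a1, a sulfate transporter best known from kidney, was higher by 1.76 and 1.60, also at low intensity, and was not called on the knockout arrays, where the differences were 0.47 and 1.11. On 1430804_at (1.76) all C57BL/6J arrays and replicates 2 and 3 of 129 were below the 5th percentile, so that size is not exact. The call of its leading probe set 1431379_a_at was lost under 5 of the 20 alternatives. Cybb, the membrane subunit of the phagocyte NADPH oxidase, was higher by 2.02, 1.36 and 1.10 on its 3 probe sets, and on the knockout arrays one of them differed by −0.41 (adjusted p = 0.508). 3830406C13Rik was higher on 3 of 3 probe sets, by 0.59 to 1.38.

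**Figure D2:**
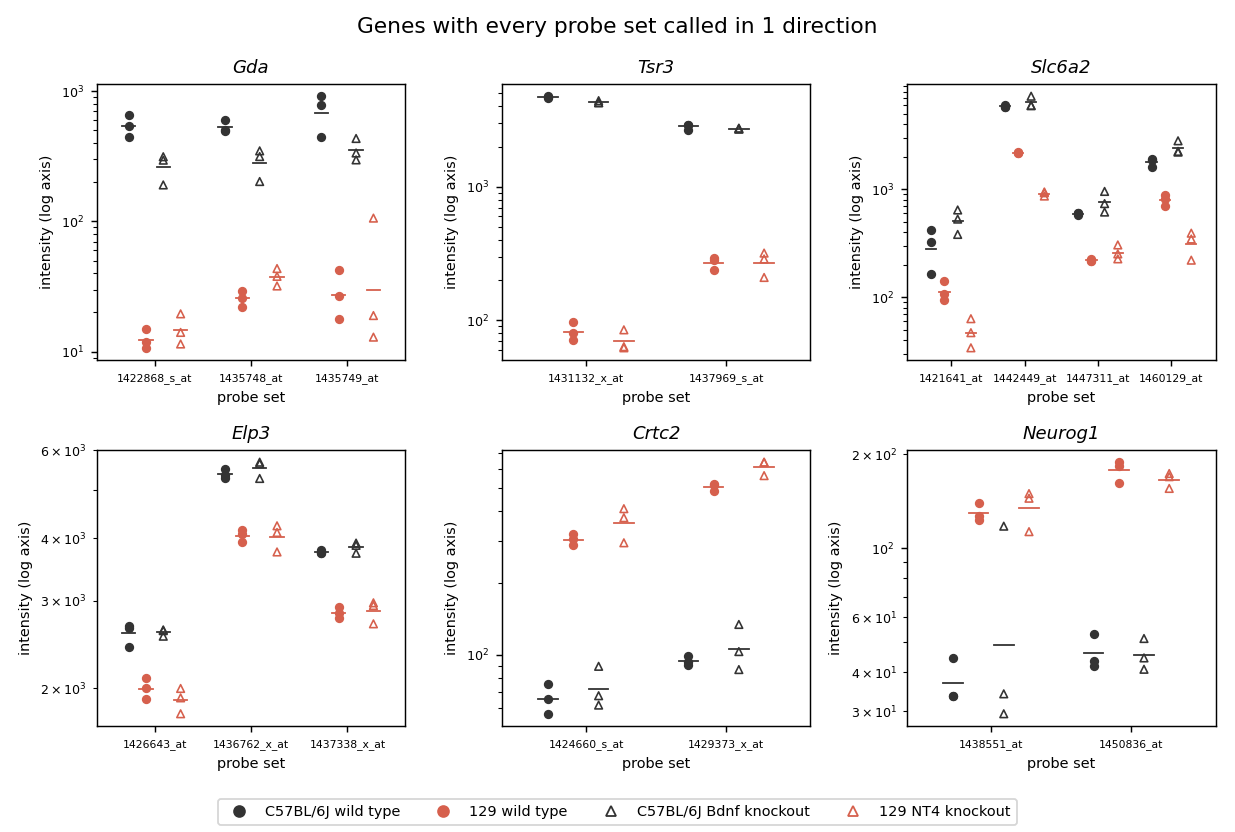
Deposited intensity on a log axis for each probe set of 6 genes, with 3 arrays per group as points and the geometric mean as a line. Filled circles are wild type, open triangles knockout, dark C57BL/6J and red 129. In Gda, Tsr3, Slc6a2 and Elp3 the 129 wild-type arrays lie below the C57BL/6J ones, and in Crtc2 and Neurog1 above.

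Agreement under the wider definition could join a very large difference to a small one, as in several of the genes chosen for their large leading difference. Of the 16 agreeing genes with the largest leading differences, 14 had a further probe set that was not called. Zfand3, a zinc finger protein, read 2235, 2327 and 2339 in C57BL/6J and 4.5, 7.19 and 8.69 in 129 on 1447850_x_at, a difference of −8.46 (SE 0.32, adjusted p = 9.76e-08). The 129 arrays were below the 5th percentile there, and against it the intensity was at least 149-fold lower. A second probe set was called at −0.63, and the other 5 lay between −0.29 and 0.04. Vamp3, a vesicle fusion protein, differed by −6.15, −1.02 and −0.59 on called probe sets and by −0.23 and −0.12 on the others. Bsn, which encodes the presynaptic scaffold bassoon, differed by −5.66, −0.66 and 0.05. Among genes higher in 129, Serf1 differed by 3.69 and 1.22, while its brightest probe sets, 1434291_a_at and 1449509_at, differed by −0.17 (95% interval −0.41 to 0.07) and −0.32 (−0.65 to 0.01). Uck2, a kinase that makes uridine and cytidine nucleotides, was higher by 2.43 and 2.86 on 2 probe sets and between −0.08 and 0.20 on the other 4. The remaining members of the 16 were Agbl3, Bloc1s6, Prrt4, Golga1, Srcap and Brwd3, with leading differences of 2.62 to 3.38, and Cct4, Gna13 and Smarca5, with −7.26, −5.09 and −4.57, and Gda and Tsr3, described above.

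Among probe sets lower in 129, the single class held the greatest fitted differences. Kif5c, a neuronal kinesin heavy chain that carries cargo along axons, read 4792, 5059 and 5258 in C57BL/6J on 1457255_x_at and 9.25, 3.78 and 1.0 in 129. That is a difference of −10.59 (SE 0.77, adjusted p = 6.06e-06), with −9.77 on the knockout arrays. As the 129 arrays lay below the 5th percentile, its exact size is not measured, and the intensity was at least 326-fold lower in 129. Its other probe set 1455266_at read 10288, 10200.1 and 10712 against 9848, 9631 and 9401, and the groups were close. The other 3 probe sets of Kif5c differed by −0.11 (95% interval −0.32 to 0.09), 0.10 (−0.13 to 0.32) and −0.11 (−0.44 to 0.22).

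Aplp2, a relative of the amyloid precursor protein, read 3343, 3179.8 and 3528 against 3.69, 3.44 and 5.83 on 1421888_x_at, a difference of −9.64 (SE 0.22, adjusted p = 4.87e-09). The 129 arrays were again below the 5th percentile, and the intensity was at least 217-fold lower. Its other 4 probe sets lay between −0.01 and 0.07. Apbb1, which encodes an adaptor that binds the amyloid precursor protein, went the other way. Its probe set 1423893_x_at read 192, 108 and 181 in C57BL/6J and 6047, 6169 and 6203 in 129, a difference of 5.31 (SE 0.20, adjusted p = 8.93e-08), while 1423892_at differed by 0.17 (95% interval −0.07 to 0.42). In both genes the groups were far apart on 1 probe set and close on the rest.

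The rule for the single class named 12 genes in all. Lower in 129 were also Atg12, an autophagy protein (−9.95), Cnn3, an actin-binding calponin (−7.71), Gsn, the actin-severing protein gelsolin (−5.82), and Eif3m, a subunit of a translation initiation factor (−5.77). Higher were Ikbkg, a regulator of NF-kappaB signalling (5.26), Tapbpl, a peptide editor of MHC class I (4.66), the non-coding host gene Snhg1 (4.42), Mex3c, an RNA-binding ubiquitin ligase (4.19), and the orphan receptor Gprc5b (4.12). The dimmer strain was below the 5th percentile on the leading probe sets of Atg12, Cnn3 and Ikbkg too, where the difference was at least 221-fold, 89.6-fold and 23.5-fold. The 33 other probe sets of the 12 genes differed by −0.57 to 0.30. All 12 leading probe sets were called on the knockout arrays too. For 8 of the 12 the name of the leading probe set ended in _x_at or _s_at. The array's maker gives these suffixes to probe sets that may also match other transcripts. Over all called probe sets, 10.4% had such names in single-class genes and 18.7% in agreeing genes. Both probe sets of Tsr3 and of Crtc2, described above, have them too. With such probe sets left out, 192 genes were agreeing, against 268 with them. Of all 392 single-class genes with a difference of at least 2, 236 had another probe set above the median level. In 153 of these, 73 higher and 80 lower, every such probe set differed by under 0.25, and the leading one was called again on the knockout arrays in 149.

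**Figure D3:**
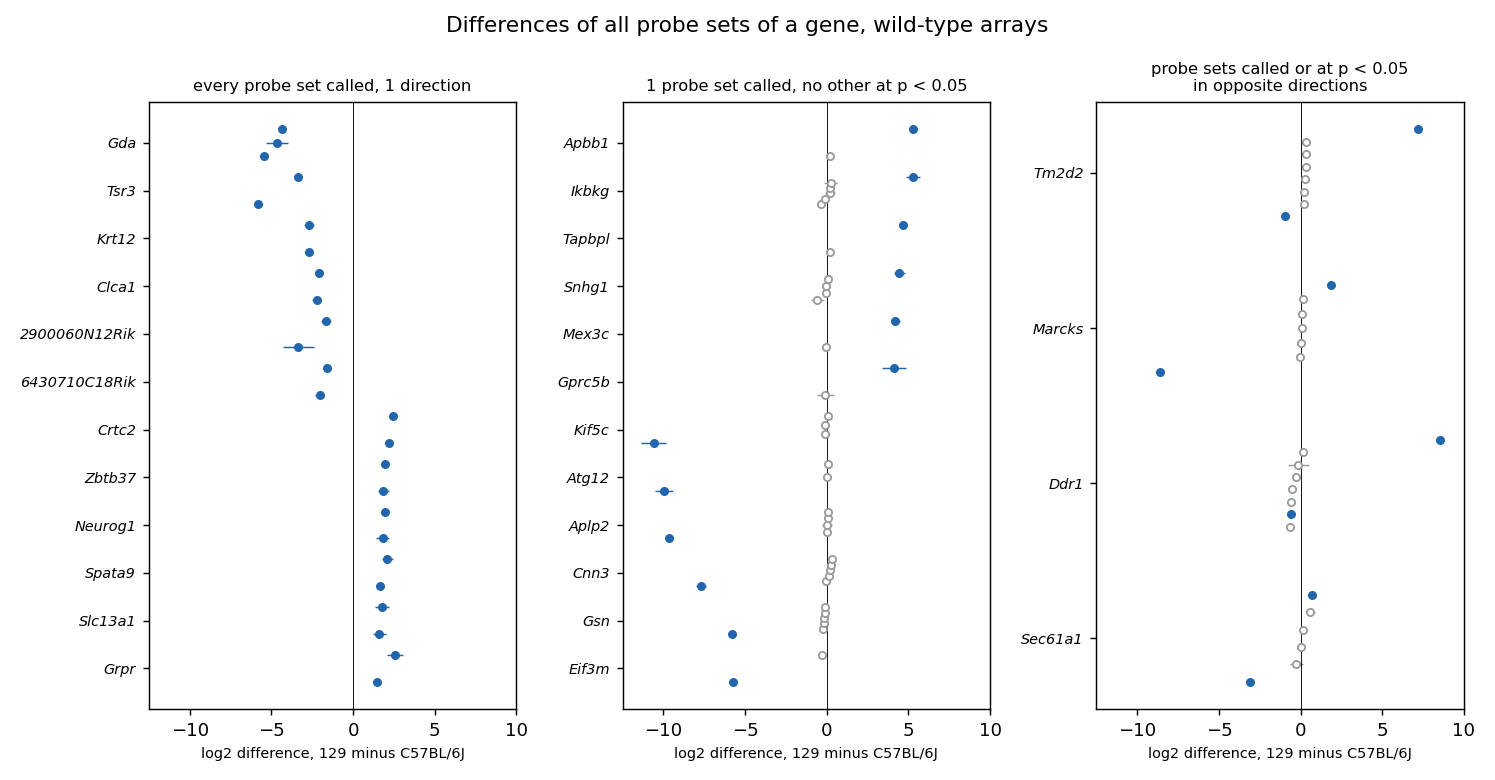
Log2 difference 129 minus C57BL/6J with its SE for every probe set of each gene, filled where called. Genes with every probe set called show values on 1 side of 0 (left), the 12 named single-class genes show 1 filled point far from a cluster near 0 (middle), and the 4 opposed genes show points on both sides (right).

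Opposed genes combined both signs. Tm2d2, a membrane protein, read 24.1, 20.7 and 22.8 against 3332, 3423 and 3039.8 on 1437725_x_at, a difference of 7.18 (SE 0.13, adjusted p = 1.06e-09). 1456663_x_at differed by −0.93 (adjusted p = 0.00746), and its other 6 probe sets by 0.18 to 0.32. Marcks, a substrate of protein kinase C that binds the membrane, differed by −8.62 on 1437034_x_at and by 1.86 on 1430311_at, both called, and by −0.06 to 0.15 on the other 5. Ddr1, a receptor tyrosine kinase for collagen, differed by 8.52 and −0.58 on called probe sets. The C57BL/6J arrays were below the 5th percentile on the first, so it was at least 67.5-fold higher in 129. Sec61a1, a subunit of the channel that carries proteins into the endoplasmic reticulum, differed by −3.09 and 0.67, and its brightest probe set 1416189_a_at by 0.01 (95% interval −0.18 to 0.21).

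Genes read by 1 probe set offer no such check. Highest in 129 relative to C57BL/6J were Prdm8, a transcriptional repressor of neurons (4.85), the vomeronasal receptor Vmn1r51 (4.71), Gm38462 (4.46) and the protease Prss40 (4.40). Prdm8 read 26.3, 55.1 and 34.1 against 1110.2, 941 and 1138. Lowest were 2210409E12Rik (−4.90), the proneural factor Neurog2 (−4.71), Olig2, a transcription factor of oligodendrocyte and motor neuron precursors (−4.41), and Vstm2l (−4.36), which read 7142, 6983 and 7158 against 342, 367 and 331. Neurog2 read 75.4, 540.4 and 73.6 against 7.42, 5.02 and 4.45, so 1 C57BL/6J array stood well above the other two. Its 129 arrays, like those of 2210409E12Rik and 1459979_x_at and the C57BL/6J arrays of Gm38462 and 1457630_at, were below the 5th percentile, so the sizes of these differences are not exact. Neurog2 was not called on the knockout arrays (−1.64, adjusted p = 0.374) or without both replicate 2 arrays. Among probe sets with no single symbol, 1447140_at (−7.13) and 1459979_x_at (−5.46) were lowest, and 1457630_at (4.66) and 1442989_at (4.61) highest.

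Direction went with level. Probe sets were divided by mean intensity into 4 groups of equal size. In the dimmest group 1165 calls were higher and 994 lower in 129, and in the second 940 and 678. In the third group they were 588 and 754, and in the brightest, with mean intensities above 715, they were 225 and 931. Leading probe sets of agreeing genes split into 23 higher and 20 lower in the dimmest group, and 27 and 31 in the second. In the third they were 25 and 51, and in the brightest 14 and 77. The median difference of the brightest group was −0.09. Its lower calls numbered 616 and 589 when replicate 1 or 2 of the 129 wild type was left out, and 1527 with a trend and robust variance. Without both replicate 2 arrays it held 125 higher and 446 lower calls. Under quantile normalization, which gives all arrays the same distribution, the brightest group split into 478 higher and 537 lower. The excess of lower calls among bright probe sets depended on that choice, and it went with the lower 75th percentile of the 129 arrays. The part of that percentile in the split was not tested.

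**Figure D4:**
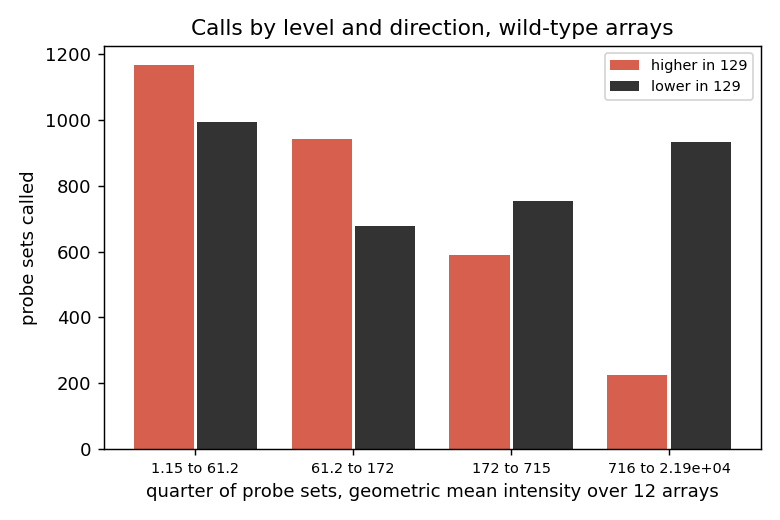
Number of probe sets called higher (red) or lower (dark) in 129, by mean intensity over the 12 arrays, in 4 groups of equal size. The bars run from 1165 higher and 994 lower in the dimmest group to 225 higher and 931 lower in the brightest.

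For gene lists the brightest probe set stood for the gene. Of these, 1047 were called higher and 1430 lower over all 18193 genes (13.6%), with a median difference of −0.06. Of 18 measured genes of gustatory and visceral sensory neurons, 2 were higher and 4 lower, with a list median of −0.04. Tlx3, a homeobox factor of the sensory lineage, read 69.8, 45.9 and 66.1 against 322, 289.6 and 280.0, a difference of 2.32 (SE 0.16, adjusted p = 4.69e-06). Phox2a, a homeobox factor of visceral neurons, read 1281, 1237 and 1152 against 469, 419 and 366, a difference of −1.55 (SE 0.12, adjusted p = 7.33e-06). The groups did not overlap for either gene, and both differences were called on the knockout arrays (2.71 and −1.63). Both genes have 1 probe set.

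Neurod1, a factor of neuronal differentiation, was lower by 2.89 in size on 1426412_at, from 2563, 2585 and 2772 to 349, 432 and 299, but its other probe set 1426413_at differed by 0.17 (95% interval −0.35 to 0.68). Pou4f1, which encodes the sensory factor Brn3a, differed by −1.46 on 1429667_at and by 0.64 on 1429668_at (adjusted p = 0.123), so it is an opposed gene. Prph, the intermediate filament peripherin, was lower on 2 probe sets, by −2.59 and −1.52, while its brightest differed by −0.07. The mean log2 level of the 18 genes was 10.08 to 10.15 on the C57BL/6J arrays and 9.63 to 9.77 on the 129 arrays. The groups did not overlap, beside a list median of −0.04. That mean takes in Neurog2 (−4.71), whose size is not exact and which was not called on the knockout arrays, as described above. The part of Neurog2 in the gap between the means was not tested. Such means did not overlap in 6 of the 21 lists, and single probe sets did not in 33.6%. P2rx3 (−0.00) and Isl1 (−0.01) differed by less than their SE.

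Somatosensory genes had 0 higher and 3 lower of 12, namely Isl2, a LIM homeobox factor (−2.87), Runx3, a factor of proprioceptive neurons (−1.03), and Pou4f1. Isl2 has 1 probe set and read 1954, 2118 and 1922 against 288, 273 and 259. Runx3 lost its call without both replicate 2 arrays, and the difference of its other probe set is not given here. Noradrenergic genes had 3 lower of 16, which were Slc6a2, Phox2a and Npy, the gene of neuropeptide Y (−0.75), whose call was lost under 6 of the 20 alternatives. Th and Dbh, the enzymes that make noradrenaline, differed by −0.16 and 0.14 and were not called. Of 20 pan-neuronal genes, such as Tubb3, Stmn2 and Snap25, none was called on its brightest probe set by limma, with a list median of −0.02.

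**Figure D5:**
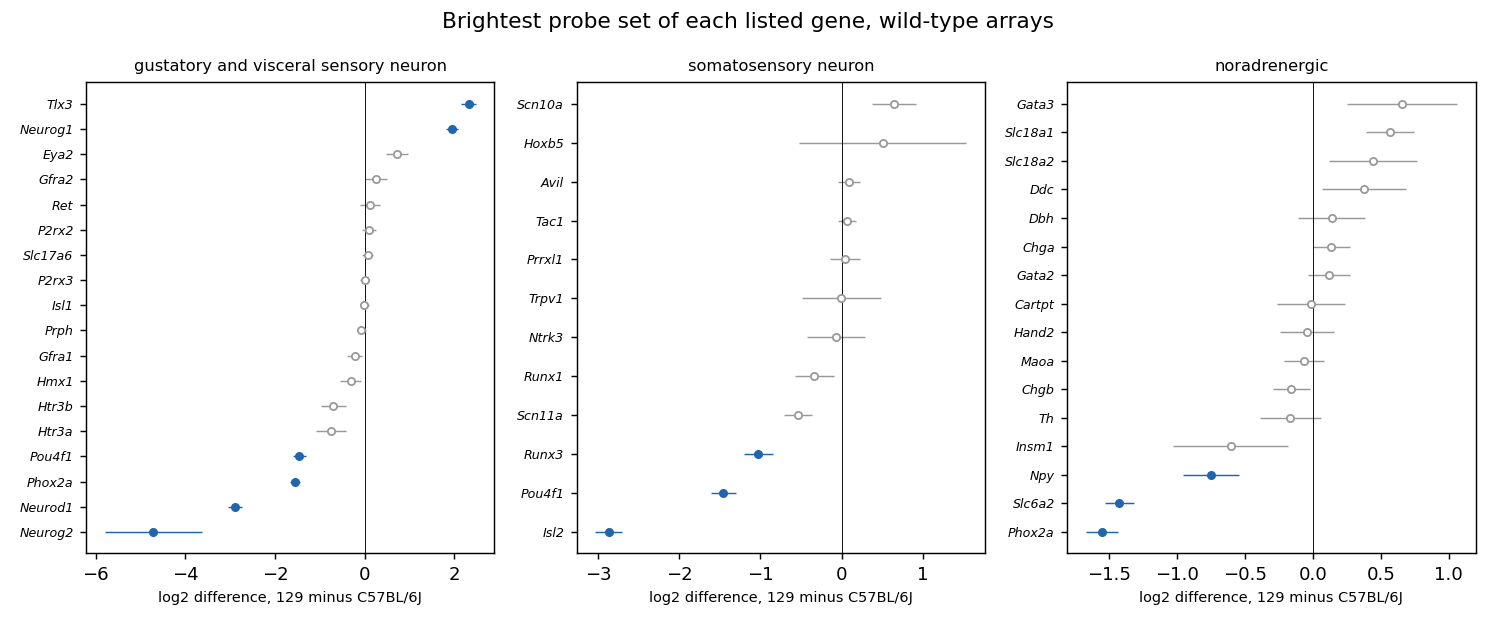
Log2 difference 129 minus C57BL/6J with its SE for the brightest probe set of each measured gene of 3 lists, filled where called. Most genes lie near 0, and the called ones run from −4.71 for Neurog2 to 2.32 for Tlx3.

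Of 33 neurotrophin signalling genes, 2 were higher and 2 lower. Ntf5, the gene of NT4, read 147, 110.2 and 118 in C57BL/6J and 33.8, 42.8 and 46.6 in 129, a difference of −1.61 (SE 0.16, adjusted p = 5.84e-05) on its 1 probe set. The difference was −1.83 on the knockout arrays, where the arrays labelled NT4 knockout read 37.2, 42.3 and 36.2, within the range of the 129 wild type. The probe set therefore did not separate the labelled knockout from its wild type, the stretch it reads was not examined, and the 129 signal cannot be told apart from background, so the size of −1.61 is not exact. Bdnf was not called, with −0.51 (adjusted p = 0.0775) on 1422169_a_at and 0.60 (adjusted p = 0.162) on 1422168_a_at. Ntrk2, the gene of TrkB, was lower on 1 of 8 probe sets (−0.55, adjusted p = 0.0403), and that call was lost under 11 of the 20 alternatives. Its 2 brightest probe sets, 1435305_at and 1458622_at, differed by −0.19 and −0.17. Ngfr, the receptor p75, differed by −0.29, −0.27 and 0.30, none called.

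Sorcs3, a sorting receptor of the sortilin family, was higher in 129 on both probe sets, by 1.25 (adjusted p = 0.00528) and 0.96 (adjusted p = 0.0169), with 121, 157 and 164 against 283, 399 and 373 on the brighter. Its brighter call was lost without both replicate 2 arrays. Kidins220, a scaffold of neurotrophin receptors, was lower on 2 probe sets by −1.16 and −0.80, while its brightest differed by −0.12. Sos1, an activator of Ras, differed by −1.06 on its brightest probe set 1434389_at, with 0.56 on another that was not called. Shc2, an adaptor of receptor tyrosine kinases, differed by 0.80. It has further probe sets, whose differences are not given here. The call of its leading probe set 1441356_at was lost without NT4 wild-type replicate 2 and without both replicate 2 arrays.

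The strain list holds genes with known allelic differences between inbred strains, and 13 of its 21 genes were measured, 2 higher and 3 lower on the brightest probe set. Gabra2, a GABA-A receptor subunit whose level is known to be reduced by a C57BL/6J allele, read 318, 243 and 308 in C57BL/6J and 790.4, 772 and 719 in 129 on 1421738_at. It was higher in 129 by 1.40 (SE 0.17, adjusted p = 0.000206) there and by 0.73 (adjusted p = 0.0239) on 1455444_at, without overlap on either. Gabra2 also has probe sets 1420299_at, 1443865_at and 1449807_x_at, whose differences are not given here. It was not among the 70 genes with every probe set called in 1 direction. Nnt, a mitochondrial transhydrogenase in which C57BL/6J is known to carry a deletion, was not called, with −0.65 (adjusted p = 0.0725), 0.13 and 0.01. Which part of the transcript these probe sets read was not examined. Casp4 was dim in both, at 15.6, 25.5 and 17.4 against 17.6, 13.1 and 26.1. The interferon-inducible genes Ifi203 and Ifi204, neighbours on chromosome 1, were lower by −1.30 and −1.01, and the lymphocyte receptor Ly9 was higher by 0.81, all at low intensity, and the call of Ly9 was lost under 6 of the 20 alternatives.

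B2m, the light chain of MHC class I, read 4990.2, 5060.2 and 5202 in C57BL/6J and 2760.1, 2650.2 and 3125 in 129 on 1449289_a_at. Both probe sets were lower in 129, by −0.84 (adjusted p = 0.00267) and −0.82 (adjusted p = 0.0112), and neither difference was called on the knockout arrays (−0.23 and 0.48), where the BDNF knockout read 3974, 3461 and 3024. Of 16 class I and antigen processing genes, 2 were higher and 3 lower. H2-T24 differed by −3.46 and H2-M3 by −0.83, while H2-Q10 (2.26) and the peptide transporter subunit Tap2 (1.18) were higher. Class I genes are near-identical copies of one another, so their probe sets can share signal. Interferon response genes split into 4 higher and 4 lower of 29. Among the higher were the GTPases Mx2 (1.94) and Irgm1 (1.63), and among the lower the synthetase family members Oasl2 (−2.56) and Oas1a (−1.28).

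Of 44 glutathione and aldehyde enzymes, 0 were higher and 5 lower in 129, with a list median of −0.12. They were Gsr, the glutathione reductase (−0.59), Gstm6 (−2.10), Gstm4 (−0.66), Akr1e1 (−0.82) and Gsto1 (−0.66), whose other probe set was called at 0.66 and whose lower call was lost under 8 of the 20 alternatives. Gsr read 4916 in C57BL/6J and 3271 in 129 as geometric means on 1421817_at. Gsr and Akr1e1 each have a further probe set, whose difference is not given here. Of the 44 genes, 7 had any probe set called, with 4 in the single class and 0 agreeing. The share of 5 in 44 lies near the background of 13.6%. Of 41 axon guidance genes, 2 were higher and 2 lower, with a list median of −0.21. Of the 41, 33 were below 0, where 58.3% of all genes were below 0. That share over all genes was not matched for intensity, and direction went with level as described above. Plxnc1, a semaphorin receptor, was lower on 3 probe sets (−0.63, −1.10 and −0.40) that were not called on the knockout arrays. It has further probe sets, whose differences are not given here. Its leading call, on 1450905_at, was lost without both replicate 2 arrays.

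Markers of other cells were examined in the same way. Cartilage genes had 2 of 17 lower, Col9a2 (−3.74) and Snorc (−0.88), and a list median of −0.65. Of the 17, 15 were below 0, against 58.3% of all genes, a share not matched for intensity. Their mean log2 level was 9.01 to 9.88 on the C57BL/6J arrays and 8.53 to 8.78 on the 129 arrays. The defining markers Col2a1, Acan and Matn1 differed by −0.44, −1.06 and −1.32 without being called, and none was near 0 in intensity. On the knockout arrays the list median was −0.24. The part of cartilage in the ganglion differences was not tested. In bulk tissue fewer cells of a type and less RNA per cell cannot be told apart.

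Schwann and satellite cell genes had 3 higher and 0 lower of 16, with a list median of 0.11. The called ones were Gfra3, a receptor for artemin (1.59, from 393 to 1184 on average), Foxd3, a neural crest factor (1.03), and Apoe (0.49). Sox10 differed by 0.11 and was not called. Inner ear genes had 2 higher and 3 lower of 11, with Lmx1a (−2.98, its 129 arrays below the 5th percentile) and Tecta (1.34) the greatest. Of 24 cell cycle genes, Birc5 (1.29) was higher, and Bub1 (−2.43) and Mcm6 (−0.91) lower. Bub1 and Mcm6 have further probe sets, whose differences are not given here. Of the 24 genes, 5 had any probe set called, with 1 agreeing and 1 in the single class. Of the muscle (20), epithelium (13) and macrophage (17) genes none was called by limma on its brightest probe set. Among the muscle genes 15 were above 0 and 5 below, with a list median of 0.17. On the brightest probe set, endothelial genes had Esam lower, connective tissue genes Fbln1 lower, and red cell genes Epb42 higher, 1 gene each. Epb42 is an opposed gene, as its dimmer probe set 1417337_at was called lower in 129. The 129 arrays were below the 5th percentile there, so the size of that difference is not exact. None of 4 sex-linked genes was called. The calls of Esam, Fbln1, Apoe and Foxd3 were lost under 14, 10, 9 and 6 of the 20 alternatives.

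Called probe sets were spread over the genome. On the autosomes and the X chromosome between 10.6% (chromosome 16) and 15.7% (chromosome 17) of probe sets were called. The share of genes with several probe sets that agreed ran from 1.85% (chromosome 4) to 5.25% (chromosome 13). Around Bdnf on chromosome 2, within 150 measured genes on either side, 51 of 90 wild-type calls (56.7%) were called again on the knockout arrays, against 217 of 268 (81.0%) on the rest of the chromosome. Around Ntf5 on chromosome 7 it was 59 of 73 (80.8%) against 220 of 280 (78.6%). These shares are descriptions and the difference was not tested.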

How the data were processed

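RNA was amplified and labelled with biotin (WT-Ovation Pico kit), per the labels' protocols. The authors deposited 1 intensity per probe set and array, on a linear scale; background correction and scaling: not given in the sources used here. Log2 of the deposited intensity was taken with no offset, and 64 control probe sets were left out. The 4 groups, all 12 arrays, were modelled by limma (version 3.58.1, R version 4.3.3, functions lmFit and eBayes; residual degrees of freedom 8, prior 2.27), two-sided, adjusted over 45037 probe sets. The fit was also run on simulated arrays with independent noise and known differences at a small set of probe sets. That run could not test shifts of a whole array's intensities. The number of arrays limits the precision, with a median SE of 0.20.

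Symbols came from the platform annotation, with 34945 probe sets having 1 symbol, 932 several and 9160 none. A RefSeq gene table (GRCm38.p6) held 34741 of the first kind and was used for names, chromosomes and gene order. Named genes followed a rule on class and size: for agreeing genes the 8 highest and 8 lowest leading differences, for single-class genes 6 and 6, for genes with 1 probe set 4 and 4, 4 opposed genes by p, listed genes by p, and the genes of the study. The 70 genes with every probe set called, and those named among them, followed a rule added after the data had been seen. The members and lists were chosen with earlier results of these data known. The 21 lists held 457 genes, 402 measured, and their counts stand beside the same counts over all genes. Alternatives were 6 arrays only, median centring, quantile normalization, a filter on dim probe sets, an offset of 16, a trend with robust variance, a replicate block, and leaving out arrays. Bounds against an array's 5th percentile were added after the data had been seen, since no detection calls were used. Sex-linked genes were used only to describe arrays.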

Additional observations from a re-analysis of the deposited data

Results flagged for a closer look

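At 5 probe sets the strain difference changed between the wild-type and the knockout arrays by a term for that change (limma, adjusted p under 0.05). At Bdnf 1422168_a_at it changed by 3.23 (SE 0.35, adjusted p = 0.0306), from 0.60 to 3.83, with group means of 233 in C57BL/6J wild type, 25.1 in the BDNF knockout, 358 in 129 wild type and 357 in the NT4 knockout. Bloc1s6 1457088_at, on chromosome 2 like Bdnf, changed by −3.35 (SE 0.26, adjusted p = 0.00450), from 3.38 to 0.03, with 103 in C57BL/6J wild type and 1053 to 1113 in the other groups. Slc6a2 1442449_at changed by −1.38 (SE 0.15, adjusted p = 0.0306), from −1.43 to −2.80, with 911 in the NT4 knockout against 2172 in its wild type. Of probe sets without a symbol, 1446755_at changed by 4.69 (SE 0.50) and 1441692_at by 1.63 (SE 0.19).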

How the results depend on the processing

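Of 145 named probe sets, 85 had a value under all 20 alternatives, and 53 of these kept direction and side of the threshold. The other 60 had none under the filter on dim probe sets, and 48 kept both under the rest. Casp4, not called, changed sign, with 0.17 without NT4 wild-type replicate 2, 0.38 without both replicate 2 arrays and −0.33 to 0.17 over single arrays left out. Centring gave 4987 lower calls on the knockout arrays and 3 calls of changed strain difference. Quantile normalization gave 478 higher and 537 lower calls in the brightest of 4 groups of probe sets, and a trend with robust variance 1527 lower. Above the median level, where fewer probe sets were tested, 2716 were called (868 higher, 1848 lower), 3350 on the knockout arrays (1253 and 2097), 1951 in both and 3 for changed difference, with 170 agreeing, 228 partly agreeing, 821 single and 169 opposed genes. A difference of at least 1 left 4127 calls (1948 lower, 74 and 233 in the brightest group), 4443 on the knockout arrays (1834 lower), 96 agreeing, 1019 single and 28 fully agreeing genes. Without both replicate 2 arrays, an alternative chosen after seeing the data, 2101 were lower, 125 and 446 in the brightest group, 1 changed difference was called, and 111 genes agreed, 28 fully, with 240 opposed. Averaging probe sets moved list medians to −0.17 (strain alleles), −0.092 (pan-neuronal) and −0.056 (neurotrophin).

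Leaving out single arrays gave 4909 to 6440 wild-type calls, 589 to 976 lower ones in the brightest group, 146 to 270 agreeing genes, 34 to 72 fully agreeing genes and 1 to 4 changed differences. Agreeing genes numbered 152 without NT4 wild-type replicate 1, 146 without replicate 2 and 177 without BDNF wild-type replicate 3, and fully agreeing ones 36, 34 and 41, with 42 without NT4 wild-type replicate 3. Lower calls in the brightest group numbered 616 and 589 without NT4 wild-type replicate 1 or 2. The cause was not tested. Same-numbered wild-type arrays deviated together at r = 0.05, −0.06 and −0.04, so the numbers were not taken as pairs. With a replicate block, 5780 probe sets were called, and 2 for changed difference. Signal near background limits the dimmest probe sets.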

Other observations

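On the wild-type arrays 1457088_at and 1417350_at were both higher in 129, by 3.38 and 2.03, which made Bloc1s6 an agreeing gene. On the knockout arrays the first differed by 0.03 and the second by 1.30, while the brightest, 1417349_at, differed by −0.13 and −0.31. Rmdn3, on chromosome 2 as well, was called in opposite directions on the wild-type arrays (−1.05) and the knockout arrays (0.74), as were Tmem29 (0.76 and −0.82) and 9330175E14Rik (−0.70 and 0.91).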
